A study of Homo sapiens with 8 samples.

Results

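Weak SMC1A-only regions are stretches of the genome where both SMC1A libraries had a low peak and no library of NIPBL or MED1 had any. Overlapping peaks of the 6 deposited lists were merged on chromosomes 1 to 22 and X, which gave 92867 regions. Members were chosen by the deposited fold enrichment: peaks of both SMC1A lists, no peak of either NIPBL or either MED1 list, and a highest fold enrichment below 6 in each SMC1A list. The rule kept 3201 regions, or 9.38% of the 34128 SMC1A-only regions (exact 95% interval 9.07 to 9.69). Of all 49931 regions with peaks of both SMC1A libraries, 20.7% had folds below 6 in both and 68.4% had no partner peak, meaning one of NIPBL or MED1. The remaining 30927 SMC1A-only regions had a fold enrichment of 6 or more in at least 1 SMC1A library, and 27615 of them in both. Because fold enrichment, overlap and the peaks themselves chose the members, strength, evidence and width are given below as description, with no test.

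The series is a ChIP-seq study of GM12878, an established lymphoblastoid cell line grown from B lymphocytes, without any treatment. SMC1A, NIPBL and MED1 were each precipitated in 2 replicates with antibodies from 1 supplier, and 2 whole cell extract libraries with no antibody were pooled as the control of every list. Formaldehyde was used to fix the cells. Whether the 2 replicates of a protein were grown apart is not stated, and their spread may be technical only. Other cohesin subunits and other cell lines were not analysed here.

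SMC1A is part of the cohesin ring, which holds stretches of DNA together and shapes chromosomes into loops. Strong cohesin sites in mammalian cells mostly lie where the DNA-binding protein CTCF stops the moving ring. NIPBL is the factor that loads cohesin onto DNA and keeps it moving, and it is mutated in many people with Cornelia de Lange syndrome. MED1 is a subunit of Mediator, a complex that is dense at active enhancers and promoters. A weak cohesin site may be held in few cells or for a short time, and ChIP-seq on a population of cells cannot tell these apart. CTCF binding was not analysed here, and no genome of the files' build was used, so no sequence is shown and regions are named by position on hg19, counted from 1.

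The members stood low in both SMC1A libraries and rested on few fragments. Their median fold enrichment was 4.69 in SMC1A replicate 1 (quartiles 4.01 and 5.25) and 4.82 in replicate 2 (4.22 and 5.41). The other SMC1A-only regions had medians of 12.6 and 14.3 in these libraries. Fold enrichment is the authors' linear ratio at the summit of a peak, read here by the peak caller's formula: ChIP fragments plus 1, divided by the local control estimate plus 1. It is therefore lower than the plain ratio of fragments to control. A fold below 6 was held by 35.9% of all SMC1A peaks in replicate 1 and 41.4% in replicate 2. Within the members 37.1% had a fold of 5 or more in replicate 1 and 42.2% in replicate 2, while 3.37% and 1.78% lay below 3. The lowest folds were 2.23 and 2.25.

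**Figure D1:**
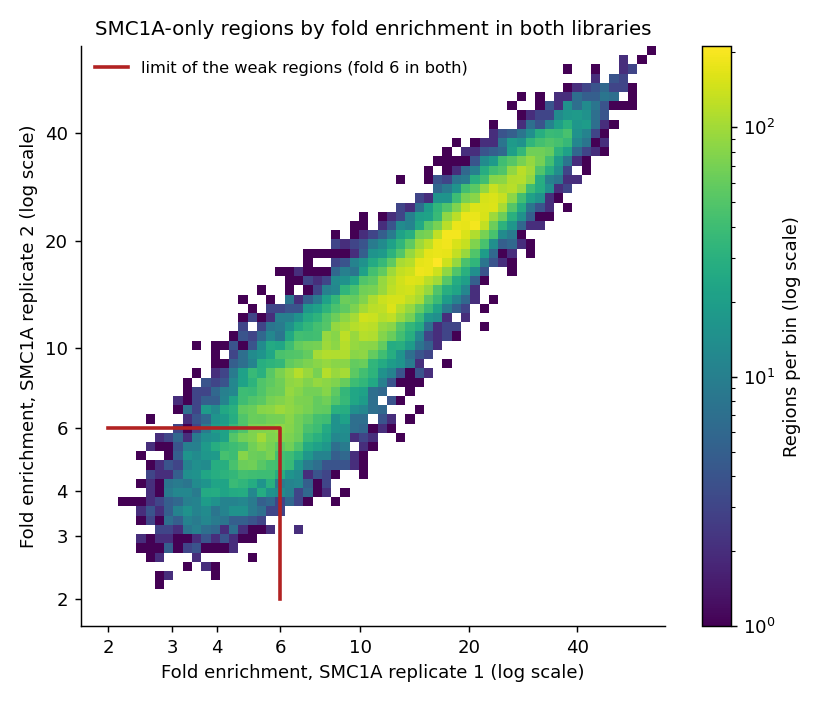
Fold enrichment of the 34128 SMC1A-only regions in SMC1A replicate 1 (horizontal, log scale) and replicate 2 (vertical, log scale). Colour gives the number of regions per bin, and the red lines bound the 3201 weak regions at fold 6. The members fill the lower left end of 1 continuous band, with no gap at the limit.

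Fragment numbers show how thin this signal was. Each pair of deposited fold and p-value has 1 solution for the ChIP fragments over a summit and the control estimate there, both in fragments, and it was found for 100% of the members. A median of 18 fragments lay over the member summits in each SMC1A library, against a median of 57 in replicate 1 and 63 in replicate 2 at the other SMC1A-only regions. The fewest over a member were 8 in replicate 1 and 9 in replicate 2, close to the lowest of any peak in these lists, 8 and 7. The control estimate is solved from the fold that chose the members, so it is given as description only. Its median was 3.29 in members and 3.29 in the other SMC1A-only regions in replicate 1, and 3.25 in both in replicate 2. The means were 3.55 in members and 3.73 in the others in replicate 1, and 3.52 and 3.68 in replicate 2. Control estimates recur at set values, and in replicate 1 both classes had a first quartile of 2.352 and a median of 3.292. Medians can therefore tie or move by a step, and a difference of 0 does not show equal controls. The difference of medians, averaged over libraries, was 0 at the limit of 6, 0.468 at a limit of 5 and -0.468 at a limit of 8. Leaving out MED1 replicate 2 at the limit of 6 gave 0.468. Leaving out an SMC1A library gave -0.465 (replicate 1) and -0.470 (replicate 2).

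**Figure D2:**
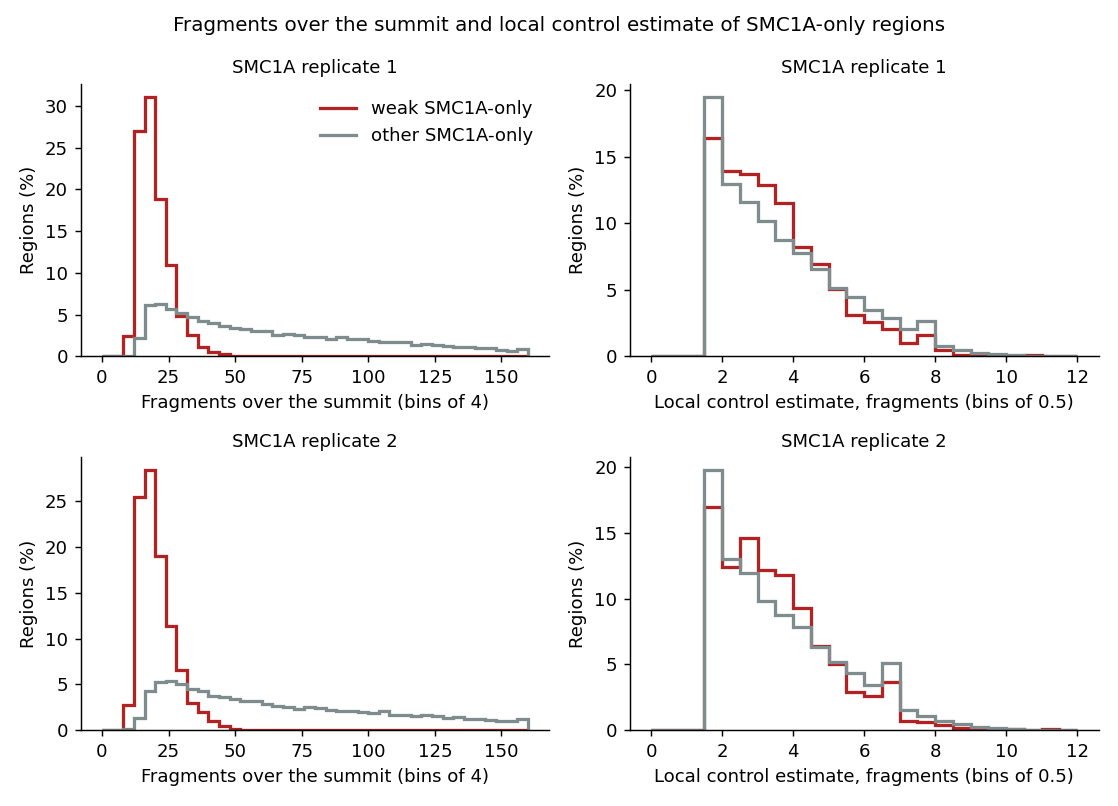
Percent of regions by ChIP fragments over the summit (left, bins of 4) and by local control estimate (right, bins of 0.5), for weak SMC1A-only regions (red) and other SMC1A-only regions (grey), with 1 row per SMC1A library. Values above 160 fragments and above a control of 12 are not drawn. The members crowd around 18 fragments while the control estimates of both classes overlap throughout.

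Although low in fold, most members lay well above the lowest evidence in the SMC1A lists. The median −log10 q was 6.65 in replicate 1 and 7.13 in replicate 2, with lowest values of 1.31 and 1.44, and the lowest of any SMC1A peak were 1.31 and 1.30. A −log10 q of 2 or more was reached by 99.5% of members in each library. A value of 10 or more was reached by 400 of 3201 members in replicate 1, against 92.3% of the other SMC1A-only regions. In replicate 2 these shares were 17.8% and 95.4%.

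The members were narrow. Their median width was 287 bp (quartiles 255 and 338). At most 500 bp wide were 94.6% of members and 78.0% of the other SMC1A-only regions. The median SMC1A peak was 239 bp in members and 357 bp in the others in replicate 1, and 254 and 373 bp in replicate 2. Exactly 1 peak of each SMC1A library was held by 99.4% of members and by 99.5% of the others, so the classes were alike in this. The shortest peaks of both classes were 200 bp. Peaks of at most 210 bp made up 22.5% of members in replicate 1 and 15.3% in replicate 2, against 1.85% and 0.782% of the other SMC1A-only regions. In all, the members covered 1011 kb.

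Summits of the 2 libraries lay close together in the members, though less so than at stronger regions. The rule puts the peaks of both libraries in 1 merged region, so the region's width bounds this distance in both classes. Median widths were 287 bp in members and 392 bp in the others, so short distances do not by themselves show agreement between libraries. The median distance between summits was 29 bp in members and 13 bp in the other SMC1A-only regions. Summits at most 50 bp apart were found in 71.2% of members (69.6 to 72.7) and 95.1% of the others (94.9 to 95.4). At most 100 bp apart were 90.5% and 99.5%. The members also had fewer fragments over their summits, a median of 18 against 57 and 63, and the part of this in the wider distance was not tested. Replicate 2 had the higher fold in 57.6% of members and in 74.5% of the others.

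The 5 members with the strongest evidence combined many fragments with a high control. With the fold held below 6, ranking by −log10 q picks such regions, so this follows from the rule and the ranking. The first, on chromosome 12 from 114404175 to 114404470, had folds of 5.19 and 5.83 in SMC1A replicates 1 and 2, from 53 and 59 fragments and control estimates of 9.41 and 9.29, with 1 added to each. A region on chromosome 6 from 27129655 to 27130108 had folds of 5.25 in both libraries, from 61 and 53 fragments. These fragment numbers are near the medians of 57 and 63 at the other SMC1A-only regions. Over all 5 regions, the control estimates of 7.06 to 10.8 lay far above the member medians of 3.29 and 3.25. The next were on chromosome 4 from 153306744 to 153307106 (folds 5.23 and 5.70), on chromosome 1 from 28052142 to 28052458 (5.96 and 5.93) and on chromosome 13 from 25569387 to 25569718 (5.63 and 5.85). The chromosome 1 region ended 0.03 kb from a MED1 region, a gap that leaves it without a partner by the rule, while the chromosome 13 region had its nearest NIPBL or MED1 region 71.5 kb away.

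The weakest evidence was held by a region on chromosome 12 from 50901598 to 50901992, with folds of 2.75 and 2.66 from 16 and 14 fragments. Its nearest NIPBL and MED1 peaks lay 1.46 kb away. Next came a region on chromosome 7 from 69029668 to 69030168 (folds 2.71 and 2.56, 17 fragments in both libraries) and 1 on chromosome 11 from 100447848 to 100448120 (folds 3.38 and 3.14, 10 fragments in both). The summits of the 2 libraries lay 13, 133 and 55 bp apart in these 3 regions, against a member median of 29 bp.

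The 3 members just inside the limit all had a fold of 5.999 in replicate 2, from 44 fragments and a control of 6.50, each with 1 added before the division. They lay on chromosome 9 from 15513477 to 15513761, on chromosome 9 from 130046317 to 130046595, and on chromosome 10 from 14946183 to 14946611, with folds of 5.09, 5.01 and 5.90 in replicate 1. The 3 regions just outside had a higher fold of 6.002, 6.003 and 6.006 and a lower one of 3.03, 4.23 and 5.37 in the other library. They lay on chromosome 2 from 175201373 to 175201811, on chromosome 6 from 37670177 to 37670409 and on chromosome 6 from 79910909 to 79911129. A single fragment more or fewer would move such regions across the limit.

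The 5 widest members, 1135 to 1624 bp, each held 2 peaks of 1 library. On chromosome 1 from 153650881 to 153652504, replicate 2 had 2 peaks and replicate 1 had 1, and the highest summits were 734 bp apart. On chromosome X from 107018710 to 107020159, replicate 1 had 2 peaks, and the summits lay 25 bp apart with folds of 4.37 and 4.13. The others lay on chromosome 10 from 77160472 to 77161788, on chromosome 14 from 73358706 to 73360010 and on chromosome 10 from 90967133 to 90968267, with summits 647, 347 and 375 bp apart. For 4 of these 5 regions, the folds of the 2 libraries were therefore read at different points.

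The rule holds both folds below 6, which limits how far they can differ. The ratio of replicate 2 to replicate 1 had a median of 1.01 in members (quartiles 0.909 and 1.16) and 1.12 in the other SMC1A-only regions (0.996 and 1.27). The largest ratio, 2.07, was on chromosome 3 from 150996075 to 150996455, with a fold of 2.71 in replicate 1 and 5.60 in replicate 2. Regions on chromosome 1 from 246163122 to 246163434 (2.54 and 5.24) and on chromosome 7 from 99177751 to 99178091 (2.45 and 5.02) came next. All 3 were stronger in replicate 2.

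Whether a weak peak of 1 library recurs can be read in the library that did not choose it. Of 7910 regions with a fold below 6 in replicate 1 and no partner peak, 69.1% had a peak in replicate 2 (68.1 to 70.1), against 98.8% (98.7 to 98.9) of the 29004 regions at or above 6. Chosen in replicate 2, 38.9% of 10920 weak regions had a peak in replicate 1 (38.0 to 39.8), against 96.0% (95.8 to 96.2) of 31115. Recurrence rose with the fold that chose them. It was 50.3%, 68.2% and 79.8% for folds below 4, from 4 to 5 and from 5 to 6 in replicate 1, and 20.8%, 38.4% and 54.5% in replicate 2. Where a weak region of replicate 1 recurred, its fold in replicate 2 had a median of 5.60 (quartiles 4.68 and 6.87), and 58.6% stayed below 6 (57.2 to 59.9). In the other direction the median was 5.04 and 75.4% stayed below 6 (74.0 to 76.6). The 3201 members are the regions weak in both. With SMC1A replicate 2 left out altogether 8143 regions met the rule, and with replicate 1 left out 11070 did. The SMC1A list of replicate 2 was also the longer, at 68228 peaks against 56510.

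Most weak SMC1A sites were not alone. Among the 49931 regions with peaks of both SMC1A libraries, 10331 (20.7%) had folds below 6 in both, and 34128 (68.4%) had no partner peak. Of those 10331, 31.0% had no partner (30.1 to 31.9) and are the members. MED1 alone was present at 19.0% (18.2 to 19.8), NIPBL alone at 1.16% (0.964 to 1.39), and both at 48.9% (47.9 to 49.8). Of the 34457 regions with folds of 6 or more in both libraries, 80.1% had no partner (79.7 to 80.6). Each partner library went the same way. NIPBL replicates 1 and 2 had peaks at 46.2% and 38.8% of weak regions, against 10.5% and 8.20% of strong ones. MED1 replicates 1 and 2 had peaks at 43.1% and 67.8% of weak regions, against 6.25% and 16.0% of strong ones. MED1 replicate 2, the longer MED1 list, was the only partner peak at 1361 weak regions, and without that library the rule would keep 4749 regions.

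**Figure D3:**
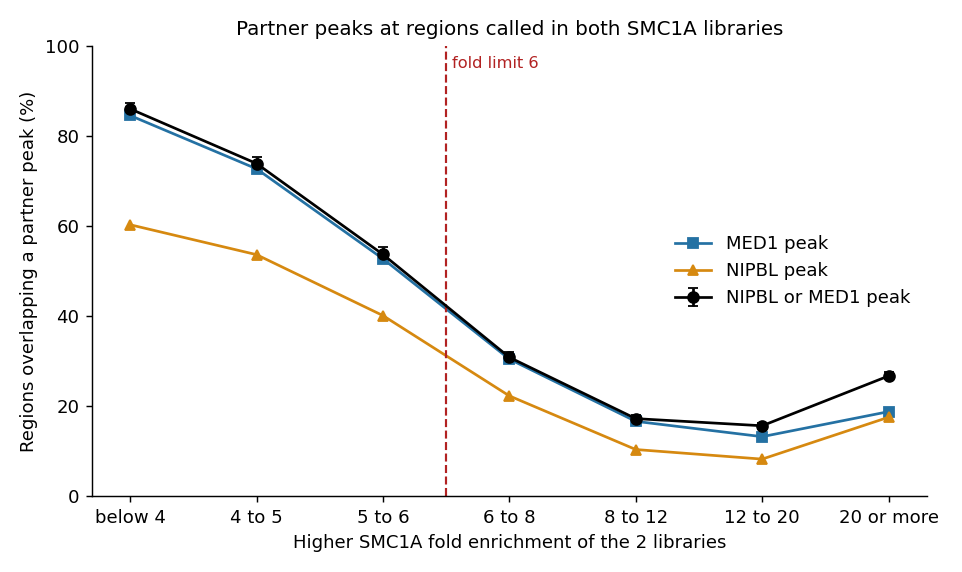
Share of regions called in both SMC1A libraries that overlap a NIPBL or MED1 peak of any replicate (vertical, percent), by the higher SMC1A fold of the 2 libraries (horizontal). Blue squares count MED1 peaks, orange triangles NIPBL peaks and black circles either of them, with exact 95% intervals on the black circles, and the dashed line is the fold limit of 6. The share with either partner was 86.0% below fold 4 and 15.6% between 12 and 20.

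The share with a partner was lower in each fold class up to 20, on both sides of the limit. It was 86.0% where the higher fold was below 4, 73.9% from 4 to 5 and 53.7% from 5 to 6. Above the limit it was 30.8% from 6 to 8, 17.2% from 8 to 12 and 15.6% from 12 to 20. It was higher again, at 26.7%, from 20 upwards. Members are therefore the minority of weak sites, and most so at the lowest folds, where 342 of 2448 regions below fold 4 had no partner.

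Weak sites with and without partners differed in their control as well as in their fold. The members had median control estimates of 3.29 and 3.25 in SMC1A replicates 1 and 2. Weak regions with MED1 alone had 5.17 and 5.11, and those with NIPBL and MED1 had 5.64 and 5.57. The 120 with NIPBL alone were nearer to members, with controls of 4.22 and 3.95 and a median of 19 and 19.5 fragments, against 18 in members. Median folds were 4.69 and 4.82 in members, against 3.76 and 4.24 with MED1 alone and 3.795 and 4.33 with both. The weak regions with both partners had more fragments, medians of 24 and 28, and wider SMC1A peaks, 323 and 413 bp against 239 and 254 bp in members. The median control was thus higher in each class of weak regions with partners, least so with NIPBL alone. Its part in the partner calls was not tested.

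Members lay closer to NIPBL and MED1 regions than other SMC1A-only regions did. The rule removed regions that overlap a partner peak from both classes, and did not use the gap beyond that. The gap is read from the same NIPBL and MED1 peaks, so a partner that just misses a region counts as near. A NIPBL region lay within 5 kb of 19.1% of members (17.7 to 20.5), against 6.0% (5.72 to 6.25) of the other SMC1A-only regions. A MED1 region lay within 5 kb of 27.5% of members (25.9 to 29.0), against 12.1% (11.8 to 12.51) of the others. The median gap to NIPBL was 37.2 kb in members and 80.6 kb in the others, and to MED1 it was 19.4 kb in members and 39.0 kb in the others. Counting NIPBL regions found in both replicates, the shares within 5 kb were 12.3% of members and 2.98% of the others. Counting such MED1 regions, they were 11.7% and 4.25%.

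Members were nearer in each partner library. Peaks of NIPBL replicate 1 lay within 5 kb of 17.2% of members and 5.02% of the others, and those of NIPBL replicate 2 of 13.5% and 3.68%. Peaks of MED1 replicate 1 lay within 5 kb of 11.7% of members and 4.10% of the others, and those of MED1 replicate 2 of 27.3% and 12.04%. The difference averaged 11.2 points ± 3.28 (SD over 4 libraries), positive in 4 of 4. A two-sided exact sign-flip permutation test gave p = 0.125, the smallest that 4 libraries allow. The test was added after these differences were seen. Any 4 differences of the same sign give that value, so it adds nothing to the signs. All 4 libraries share 1 control and were set against the same SMC1A regions, so they are not 4 separate readings of the members.

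**Figure D4:**
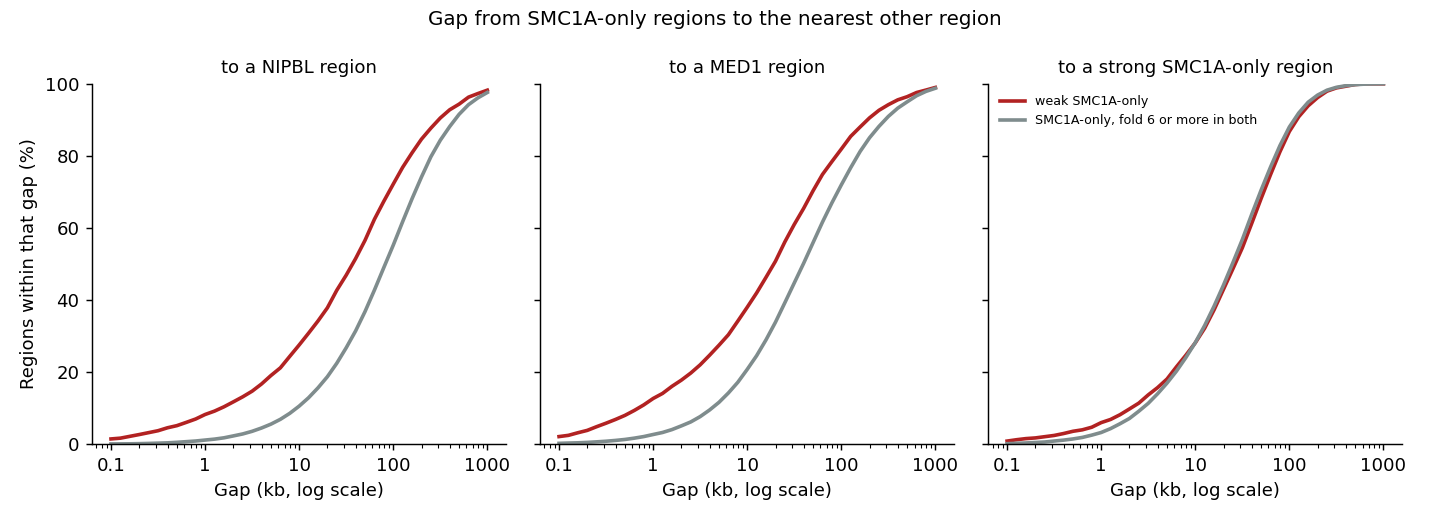
Cumulative percent of regions (vertical) within a given gap in kb (horizontal, log scale) of the nearest NIPBL, MED1 or strong SMC1A-only region, for weak SMC1A-only regions (red) and SMC1A-only regions with a fold of 6 or more in both libraries (grey). The red curve lies above the grey one for NIPBL and MED1, while the curves for strong SMC1A-only regions nearly coincide beyond 5 kb.

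The classes lay closer together in their gap to strong cohesin sites. An SMC1A-only region with folds of 6 or more in both libraries lay within 5 kb of 18.0% of members (16.7 to 19.4) and 16.7% of the other SMC1A-only regions (16.2 to 17.1). Within 50 kb the shares were 68.0% (66.3 to 69.6) and 70.1% (69.6 to 70.6). The median gaps were 26.5 kb and 25.1 kb. Within 1 kb, members were the more frequent, at 6.0% (5.2 to 6.88) against 3.21% (3.01 to 3.41). The nearest region of any kind was SMC1A with a partner for 25.1% of members (23.7 to 26.7), against 13.7% (13.3 to 14.1) of the others. Such regions made up 25.9% of all 92867 merged regions, a share near that of members and above that of the others. The nearest was another SMC1A-only region for 42.6% of members (40.9 to 44.3) and 56.0% of the others (55.5 to 56.6), against 36.7% of all merged regions. NIPBL or MED1 without SMC1A was nearest for 18.1% of members (16.7 to 19.4) and 16.2% of the others (15.8 to 16.6), against 25.9% of all merged regions.

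The nearness to partners was concentrated at short range but did not stop there. Within 1 kb, 14.6% of members had a NIPBL or MED1 region (13.4 to 15.8), against 3.33% of the others (3.13 to 3.53). From 1 to 5 kb the shares were 15.9% (14.6 to 17.2) and 9.85% (9.52 to 10.2). With every region within 1000 bp of a partner left out of both classes, the difference within 5 kb was 5.28 points for NIPBL and 5.49 points for MED1, averaged over their libraries, against 10.99 and 11.4 with all regions. Weakness judged by −log10 p in place of fold gave 6.68 and 5.75 points. Under that choice the median control estimate differed too, by -0.841 between weak and other SMC1A-only regions.

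Along the SMC1A fold, the nearness to NIPBL and MED1 declined on both sides of the limit. A NIPBL region lay within 5 kb of 33.9% of SMC1A-only regions whose higher fold was below 4 (28.9 to 39.2), 24.3% from 4 to 5 (21.7 to 27.1) and 13.3% from 5 to 6 (11.8 to 15.0). It was 8.50% from 6 to 8 (7.69 to 9.36) and 4.49% from 20 upwards (4.07 to 4.93). For MED1 these shares were 41.5%, 34.4%, 21.0%, 15.4% and 10.1%. The share within 5 kb of a strong SMC1A-only region stayed between 15.4% and 21.3% over all fold classes.

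Members near a partner differed from those far away. The 466 members with a partner region within 1 kb had median folds of 4.24 and 4.44 in SMC1A replicates 1 and 2, from 20 and 21 fragments and control estimates of 4.23 and 4.18. The 882 members with none within 50 kb had 5.02 and 5.07, from 17 fragments in both and control estimates of 2.82 and 2.79. The control estimate thus fell with the gap while the fragments changed little. Summits of the 2 libraries lay a median of 46 bp apart within 1 kb of a partner and 25 bp apart beyond 50 kb.

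Within ranges of like control, members were nearer to partners than other SMC1A-only regions in every range. The difference was larger where the control was higher. These ranges were set after the values were seen. The control is solved from the fold that chose the members, so within a range the classes still differ by the fold rule. The split therefore cannot separate control from fold, and the part of either in the nearness was not tested. Where the replicate 1 control was below 2.5, a NIPBL or MED1 region lay within 5 kb of 14.6% of members and 7.50% of the others. From 2.5 to 3.5 it was 30.0% and 14.6%, from 3.5 to 5 it was 38.8% and 14.6%, and from 5 upwards it was 46.5% and 18.5%. The replicate 2 control gave differences of 7.17, 15.1, 23.7 and 28.0 points in the same ranges.

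Some members were isolated, though a smaller share than among the other SMC1A-only regions. No merged region of any kind lay within 50 kb of 215 members. For 308 of the 3201 members, neither a partner nor a strong SMC1A-only region lay within that distance. The latter count was not made for the other SMC1A-only regions, so it is not set against them. Another merged region lay within 50 kb of 93.3% of members (92.4 to 94.1) and 89.1% of the others (88.7 to 89.4). A NIPBL or MED1 region lay within 50 kb of 72.4% of members (70.9 to 74.0) and 58.3% of the others (57.8 to 58.9). The most remote lay on chromosome X from 97634214 to 97634518, with 470 kb to the nearest region and folds of 5.74 and 4.34 in SMC1A replicates 1 and 2 from 15 and 11 fragments. On chromosome 2 from 193614388 to 193614606 the gap was 463 kb and the folds were 4.48 and 4.82. On chromosome 9 from 23842633 to 23842853 it was 350 kb, with folds of 3.88 and 4.42. These 3 sites had 11 to 15 fragments and control estimates of 1.76 to 2.35. The chromosome X site, at 1.79 and 1.76, was at the lowest control solved for any SMC1A peak in both lists.

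Members were spread over all 23 chromosomes much like other SMC1A-only regions. Chromosome 1 held 9.50% of members (8.50 to 10.6) and 9.37% of the others (9.05 to 9.70). The share of SMC1A-only regions that were weak ran from 7.39% on chromosome X (5.98 to 9.02) and 7.86% on chromosome 19 (6.25 to 9.72) to 11.4% on chromosome 14 (9.53 to 13.4). The intervals of chromosomes X, 6 (10.9%, 9.49 to 12.4) and 14 left out the overall 9.38%, those of the other 20 did not, and the intervals were not adjusted for their number.

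**Figure D5:**
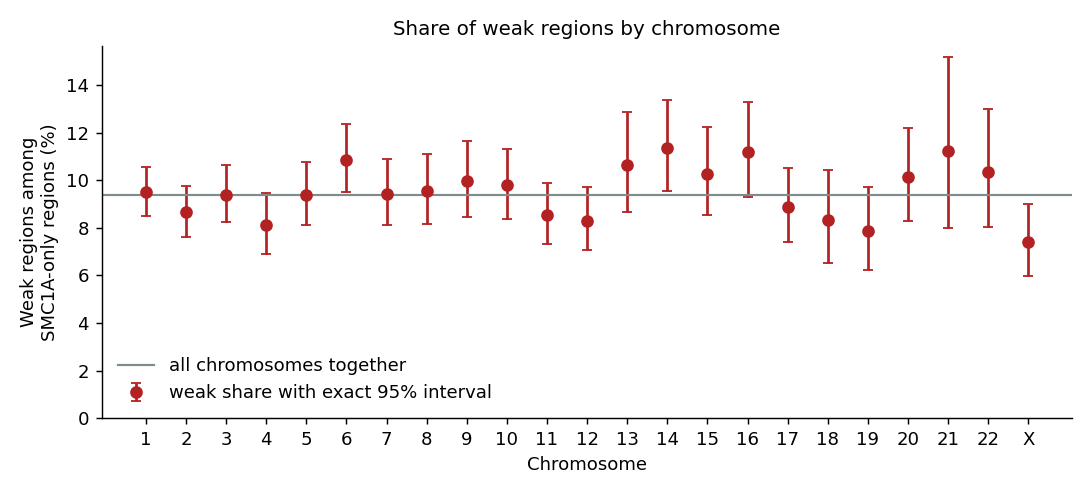
Share of SMC1A-only regions that were weak (vertical, percent) on each chromosome (horizontal), with exact 95% intervals, and the share over all chromosomes as a line at 9.38%. Shares ran from 7.39% on chromosome X to 11.4% on chromosome 14, and most intervals crossed the line.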

How the data were processed

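ChIP-seq peak lists of NIPBL, SMC1A and MED1 in GM12878 (2 libraries each) were used. Each library has its own list, made by the authors against both whole cell extracts as 1 pool, per the labels. Tools credited to the submitters' processing notes are MACS2 2.1.0, BWA 0.7.12 and Trimmomatic 0.33, on hg19. For settings, the sources used here name none. Fold enrichment, as deposited, is a ratio, read as ChIP fragments plus 1 over the control estimate plus 1. Each peak also has −log10 values of p and q, as deposited. The deposited score column was not used.

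Peaks overlapping by at least 1 bp were merged on chromosomes 1 to 22 and X (Python 3.11.15, pandas 2.3.3, scipy 1.17.1). The files hold no read totals, so depth was read only as fragments over summits. These were solved from fold and p-value by the peak caller's formulas, to within 0.01 in −log10 p, for 99.9% and 99.7% of peaks of SMC1A replicates 1 and 2. Merging, distances, membership and solving were tested on simulated data.

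Intervals of shares are exact (Clopper-Pearson, 95%). They reflect counting error alone and treat neighbouring regions as independent. Differences between region classes were read within each library. The planned test of the control estimate is not reported, because that estimate is solved from the fold that chose the members. The exact sign-flip permutation test over partner libraries and the split by control estimate were added after the data were seen. Replicate left out, −log10 q of at least 2, fold limits of 5 and 8, ranking by −log10 p, joining within 200 bp, partners within 1000 bp and stitching distance were varied.

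Members, rules and comparisons were chosen with earlier results of these data known. Regions are named as those with strongest and weakest evidence, the widest, those nearest the limit, the most unequal between libraries, the most remote, and the clusters with most members. Gene annotation and sequence of hg19 were not used here. The planned motif and base composition counts need them and were not run.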

Additional observations from a re-analysis of the deposited data

Results flagged for a closer look

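On sequences other than chromosomes 1 to 22, X and Y, which the comparisons leave out, 4 regions met the rule of the weak SMC1A-only regions. They are given because they lie outside the comparisons and their number is above a listing limit of 3. That limit does not say how many to expect, so their number is not shown to be high. No expected number was computed. They were among 85 merged regions on 13 such sequences, beside 19 other SMC1A-only regions. With 2 libraries per protein, no group was large enough to look for a library far from the others.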

How the results depend on the processing

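With 1 library left out, the number of members ran from 3205 to 11070, their share of SMC1A-only regions from 9.38% to 26.2%, the median fold averaged over libraries from 4.54 to 4.77, and the share on chromosome 1 from 8.71% to 9.49%. Summits within 50 bp ran from 64.6% to 71.1%, recurrence averaged over both directions from 53.8% to 54.0%, members in clusters from 6.12% to 20.8%, and the difference of control medians from -0.470 to 0.468. The difference within 5 kb, averaged over libraries, ran from 10.0 to 16.1 points for NIPBL and from 10.6 to 15.2 for MED1. Recurrence and summit distance need both SMC1A libraries and have no value without 1 of them. A −log10 q of at least 2 left 3179 members, with 20 of the 22 named ones, and moved no result over all members beyond its spread. A fold limit of 5 gave 1365 members (4.0%), a median fold of 4.16, 64.2% of summits within 50 bp, a control difference of 0.468, and 17.1 and 17.2 points for NIPBL and MED1. A limit of 8 gave 7626 members (22.3%), a median fold of 5.65, 79.2%, -0.468, 6.07 points for NIPBL, and 10.8% in clusters. Weakness by −log10 p gave 12.8% of SMC1A-only regions, a median fold of 5.08, 72.9%, -0.841, 6.68 and 5.75 points, and 7.12% in clusters. Joining peaks up to 200 bp apart gave 8.94%, 9.27 points for NIPBL and 5.09% in clusters. Partners kept 1000 bp away gave 8.38%, 74.2%, -0.0095, 5.28 and 5.49 points, and 4.42% in clusters. Stitching up to 5 and 25 kb put 3.66% and 10.7% in clusters. The cause of these moves was not tested beyond what each choice does by construction. The nearness to NIPBL and MED1 kept its direction under every alternative listed, and set against SMC1A-only regions of fold 6 or more in both libraries, a choice made after seeing the data, it was 11.3 and 11.8 points. The number of named members kept was 8 of 22 at a limit of 5 and 13 of 22 by −log10 p. It was 17 with peaks joined up to 200 bp apart and 20 with partners kept 1000 bp away. No paired analysis was possible because no test compares the antibodies, whose libraries share only replicate numbers. The lowest pileups were 8 and 9 fragments in members and 8 and 7 in the SMC1A lists. Sites below those were not listed, and the files give no read totals to set a limit by depth.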

Other observations

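Another member lay within 5 kb of 3.66% of members (3.03 to 4.36), and a member lay within 5 kb of 2.22% of the other SMC1A-only regions (2.06 to 2.39). Within 10 kb the shares were 5.59% (4.82 to 6.45) and 3.85% (3.64 to 4.07). At the stitching distance commonly used for enhancer clusters, 194 members (6.06%, exact 95% interval 5.26 to 6.94) lay in 94 clusters of at least 2, of which 6 held 3 members and none held more. Without MED1 replicate 2, 12.3% of the regions then meeting the rule were clustered. It was 20.8% without SMC1A replicate 1 and 15.1% without SMC1A replicate 2, with many more regions to stitch. The first 3-member cluster, on chromosome 2 from 240186944 to 240197364, had folds of 3.25 to 5.19 in SMC1A replicate 1 and 4.45 to 5.48 in replicate 2, and 2 regions with NIPBL or MED1 lay inside it. The second, on chromosome 3 from 50648838 to 50665511, held 3 such regions and 1 other SMC1A-only region. The third, on chromosome 7 from 50244259 to 50250454, held 1 region with a partner, and its member folds ran from 3.06 to 4.49 over both libraries. In these 3 clusters weak SMC1A-only regions lie among regions of NIPBL or MED1 within 6.196 to 16.7 kb.

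Peaks found in only 1 SMC1A library and without a partner also lay nearer to members. Such a region was within 5 kb of 10.7% of members (9.63 to 11.8) and of 6.85% of the other SMC1A-only regions (6.57 to 7.14). Another weak SMC1A-only region was within 50 kb of 17.7% of members (16.4 to 19.0) and of 13.7% of the others (13.3 to 14.1). These values are descriptions of neighbouring regions and were not tested.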
